A study of Mus musculus with 6 samples.

Results

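Nitric oxide and arginine metabolism was followed through 6 genes, *Nos2*, *Ass1*, *Asl*, *Slc7a2*, *Gch1*, and *Odc1*. A noncontrol spot of the arrays was taken as a member when its gene name equaled one of these symbols, which found all 6 genes among 34787 gene names and gave 11 of 55681 probes. Gene expression was measured on 1-color Agilent arrays in murine bone marrow–derived macrophages (BMDMs) of wild type female C57/B6 mice, 6 to 8 weeks old per the labels, that had been grown for 7 days with medium from L929 cells. The cells were left untreated, given LPS, a bacterial cell wall component sensed by TLR4, for 4 h, or given the USP7 inhibitor HBX41108 at 10 μM for 30 min and then LPS for 4 h (LPS+USP7i). The series text gives the LPS dose as 100 ng/ml, whereas the sample labels state it per microliter, and neither source says whether cells with LPS alone received the inhibitor's solvent. Each group comprised 2 arrays from separate experiments, so every mean and SD below rests on a pair of values.

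Inducible nitric oxide synthase, the product of *Nos2*, turns arginine into nitric oxide and citrulline and needs tetrahydrobiopterin, whose synthesis begins with the product of *Gch1*. *Slc7a2* encodes a transporter that brings arginine into the cell, and the enzymes of *Ass1* and *Asl* rebuild arginine from citrulline. The product of *Odc1* commits ornithine, which derives from arginine, to polyamines. In mouse macrophages *Nos2* is a hallmark of the response to LPS.

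LPS raised 4 of the 6 genes, *Nos2*, *Slc7a2*, *Gch1*, and *Odc1*, and lowered 0 of them (limma, adjusted p under 0.05). Of all 55680 probes tested, 7.09% were called higher and 10.7% lower with LPS. When the USP7 inhibitor was present, *Nos2* was lower and *Odc1* was higher than with LPS alone, while 3.79% of all probes were called lower and 4.66% higher. The other 4 genes passed the threshold in neither direction in that comparison. LPS+USP7i cells still exceeded untreated cells in the same 4 genes that rose with LPS, and in this comparison 5.65% of all probes were called higher and 7.34% lower.

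The log2 differences of the 6 genes, each taken from its brightest probe, had a median of 2.26 for LPS minus untreated, −0.25 for LPS+USP7i minus LPS, and 2.93 for LPS+USP7i minus untreated. Over all gene names the medians were 0.0016, 0.0009, and −0.0021 in the same order. Over the 20720 probes well above background on all 6 arrays they were −0.15, 0.048, and −0.066. At an unadjusted p under 0.05, 5 of the 6 genes were higher and 0 were lower with LPS, beside 11.3% and 17.7% of all probes. At that limit 1 was higher and 2 were lower with the inhibitor added, beside 12.5% and 10.3% of all probes. LPS+USP7i exceeded untreated cells in 5 genes and was lower in 0 at the same limit, beside 11.1% and 14.5% of all probes. The 3 comparisons share arrays and are therefore not independent of each other. With scaling to the 75th percentile in place of quantile normalization, the median of all probes moved to 0.51 for LPS minus untreated and 0.55 for LPS+USP7i minus untreated. The share of higher among called probes went from 39.9% to 79.3% and from 43.5% to 82.7% in these 2 comparisons, so their differences are relative to the scaling used. In LPS+USP7i minus LPS that median was 0.0023, and the share was 55.2% and became 54.4%.

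**Figure D1:**
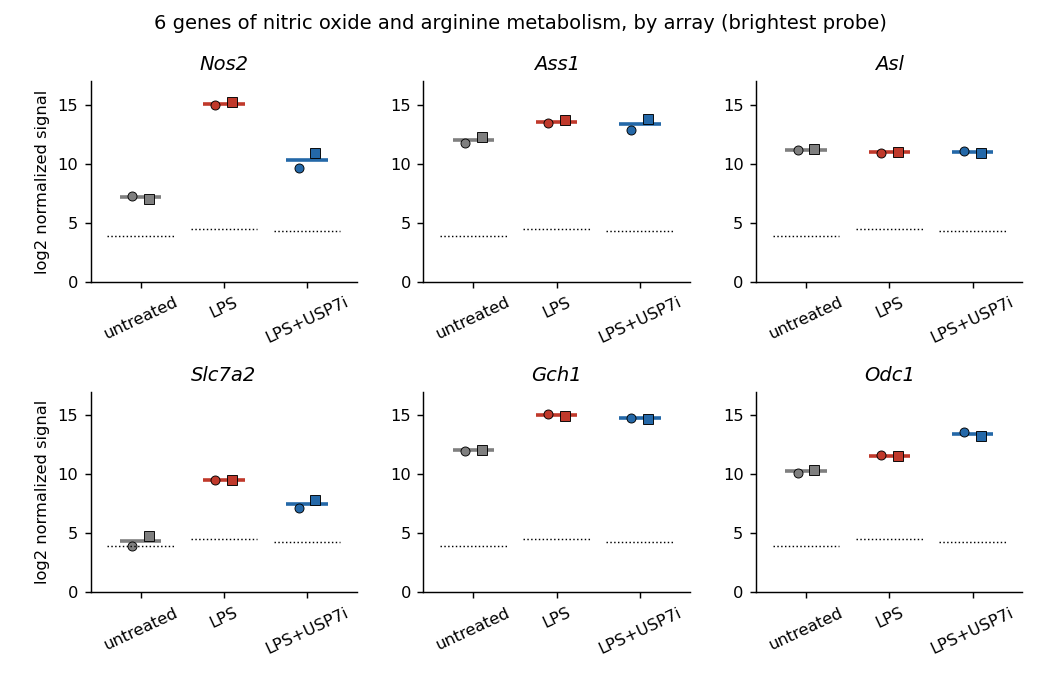
Quantile-normalized log2 signal of the brightest probe of each gene on the 6 arrays, with circles for replicate 1, squares for replicate 2, bars for the mean of a group, and dotted lines for the mean of the lowest signals well above background on its arrays. *Nos2* lies between 14.94 and 15.22 with LPS and between 9.64 and 10.94 with LPS+USP7i; heights are not comparable between genes.

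*Nos2* was read by a single probe, spotted 2 times on each array, that lies at chr11:78773567-78773626 on the plus strand of mouse genome build mm9. Its first 30 bases are shown because the widest differences among the 6 genes for LPS minus untreated and for LPS+USP7i minus LPS were measured through it.
Nos2 probe, bases 1 to 30: caccatgccgccgctctaatacttagctgc
The log2 signal of *Nos2* was 7.25 and 7.03 without treatment, 14.94 and 15.22 after LPS, and 9.64 and 10.94 after LPS+USP7i (replicates 1 and 2). No groups overlapped, with the LPS arrays highest, the untreated arrays lowest, and both LPS+USP7i arrays in between. The LPS+USP7i arrays were also the furthest apart, with an SD of 0.92 against 0.19 for LPS and 0.15 for untreated cells (n = 2 each). On the linear scale of the scanner, these processed signals were 169 and 199, 30333 and 46560, and 624 and 1858 in the same order. The paired spots of an array differed by at most 0.18 on the log2 scale, which is a repeated measurement and not a further sample.

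LPS raised *Nos2* by 7.94 ± 0.48 (SE) on the log2 scale, which is 246-fold (adjusted p = 0.00412), and with normexp background correction the log2 difference was 7.20. With the inhibitor *Nos2* fell by 4.79 ± 0.48 relative to LPS, a 27.8-fold decrease (adjusted p = 0.0200). Taken by replicate number, the log2 difference was −5.31 (replicate 1) and −4.28 (replicate 2), so the decrease was present in both. *Nos2* stayed 3.15 ± 0.48 above untreated cells, which is 8.85-fold (adjusted p = 0.0283). Among the 20720 probes well above background on all 6 arrays, the difference of *Nos2* ranked 8 from the highest for LPS minus untreated and 5 from the lowest for LPS+USP7i minus LPS.

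The call of *Nos2* with the inhibitor was lost in a fit of only the LPS and LPS+USP7i arrays (adjusted p = 0.0725). It was also lost without untreated replicate 1 or 2 (0.0725 each), without LPS replicate 1 (0.0805), and without LPS replicate 2 (0.0802), within a range of 0.000653 to 0.0805 over all alternatives. The call against untreated cells was lost in the fit of those groups alone (0.0782), without untreated replicate 1 (0.119) or 2 (0.134), and without either LPS array (0.0782 each), within a range of 0.00305 to 0.134. Over all alternatives the log2 difference lay between −5.44 and −4.15 for LPS+USP7i minus LPS and between 2.50 and 3.79 for LPS+USP7i minus untreated. Both ends of each range came from leaving out 1 LPS+USP7i array, and normexp gave 2.53 against untreated cells.

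Over the 6 arrays, the 4 RefSeq genes whose centered log2 values lay closest to those of *Nos2*, out of 13259 searched, were *Serpina3g*, *Tnfsf15*, *Serpina3f*, and *Il19*. Their Euclidean distances were 0.72, 1.05, 1.25, and 1.31 on the log2 scale. *Serpina3g*, which encodes a serine protease inhibitor, had log2 signals of 6.28 and 5.18, 13.95 and 13.90, and 8.41 and 9.62 in untreated, LPS, and LPS+USP7i cells. *Tnfsf15*, a ligand of the tumor necrosis factor superfamily, had 7.18 and 6.75, 14.29 and 15.01, and 10.12 and 11.50. Their likeness to *Nos2* follows from the way they were chosen and is no further evidence. For *Serpina3f* and *Il19*, 0 of 2 untreated arrays were well above background, so their distance rests partly on signals that were not measured.

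The transporter gene *Slc7a2* was read by a probe at chr8:42002869-42002928 of mm9. Untreated arrays gave log2 signals of 3.92 and 4.81, LPS arrays 9.52 and 9.50, and LPS+USP7i arrays 7.19 and 7.84. The untreated arrays were lowest, of which 1 of 2 was well above background, and the LPS+USP7i arrays again lay below the LPS arrays without overlap. *Slc7a2* was called higher with LPS (adjusted p = 0.00562). The log2 difference was 5.15 ± 0.39, but 3.23 with normexp and 4.30 with the authors' log2 values, so its size depends on the processing. No fold is given, because only 1 of 2 untreated arrays was well above background. The log2 difference of LPS+USP7i minus LPS was −1.996 ± 0.39, with a 95% interval from −3.08 to −0.91, and did not pass the threshold (adjusted p = 0.0648). By replicate number it was −2.33 (replicate 1) and −1.66 (replicate 2). It did pass under 5 of 15 alternatives, among them 75th percentile scaling (0.0472) and the authors' log2 values (0.0217), within a range of 0.00228 to 0.207.

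*Slc7a2* was also called higher in LPS+USP7i than in untreated cells (adjusted p = 0.0190). The log2 difference was 3.15 ± 0.39, but 1.57 with normexp and 2.42 with the authors' log2 values. Its size is uncertain, because only 1 of 2 untreated arrays was well above background, and no fold is given. This call was lost without untreated replicate 1 (0.0632) or 2 (0.0514), without LPS replicate 1 or 2 (0.0605 each), without LPS+USP7i replicate 2 (0.0668), and in the fit of those groups alone (0.0605), within a range of 0.00182 to 0.0668. It held without LPS+USP7i replicate 1 (0.0498).

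*Ass1* and *Asl* encode the enzymes of the citrulline-to-arginine route, argininosuccinate synthase and argininosuccinate lyase. The brighter probe of *Ass1*, at chr2:31376068-31376127 of mm9, had log2 signals of 11.77 and 12.28 on untreated arrays, 13.43 and 13.68 after LPS, and 12.89 and 13.76 after LPS+USP7i. The files assign this probe to a second transcript as well, and the signals of both cannot be told apart. The other probe, which ends 10 bases upstream of it, had 10.60 and 11.07, 12.57 and 12.63, and 12.04 and 12.54. On both probes all LPS and LPS+USP7i arrays lay above the untreated arrays. For LPS minus untreated the brighter probe differed by 1.53 ± 0.37 and missed the threshold (adjusted p = 0.0679), whereas the dimmer probe rose by 1.77 ± 0.25 and passed it (0.0186).

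For LPS minus untreated the adjusted p of *Ass1* was under 0.05 in 10 of 15 alternatives, among them the mean of its probes. The log2 difference ranged from 1.28 to 1.95 over the alternatives. For LPS+USP7i minus untreated the brighter probe differed by 1.30 ± 0.37 (adjusted p = 0.118) and the dimmer by 1.46 ± 0.25 (0.0365). Over the alternatives this difference of *Ass1* ranged from 0.87 to 1.74, and it passed in 4 of 15. Between LPS+USP7i and LPS the log2 differences were −0.23 and −0.31, and neither passed. On the brighter probe this last difference was −0.54 in replicate 1 and 0.079 in replicate 2, and it was 0.20 without LPS+USP7i replicate 1. *Asl* had log2 signals of 11.13 and 11.20, 10.94 and 11.01, and 11.10 and 10.90. These 6 values span little, and the LPS+USP7i arrays overlap those with LPS. The differences of *Asl* were −0.19 for LPS minus untreated (95% interval −0.45 to 0.077) and 0.02 for LPS+USP7i minus LPS (−0.24 to 0.28), and they became 0.010 and −0.068 with 75th percentile scaling, none past the threshold.

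**Figure D2:**
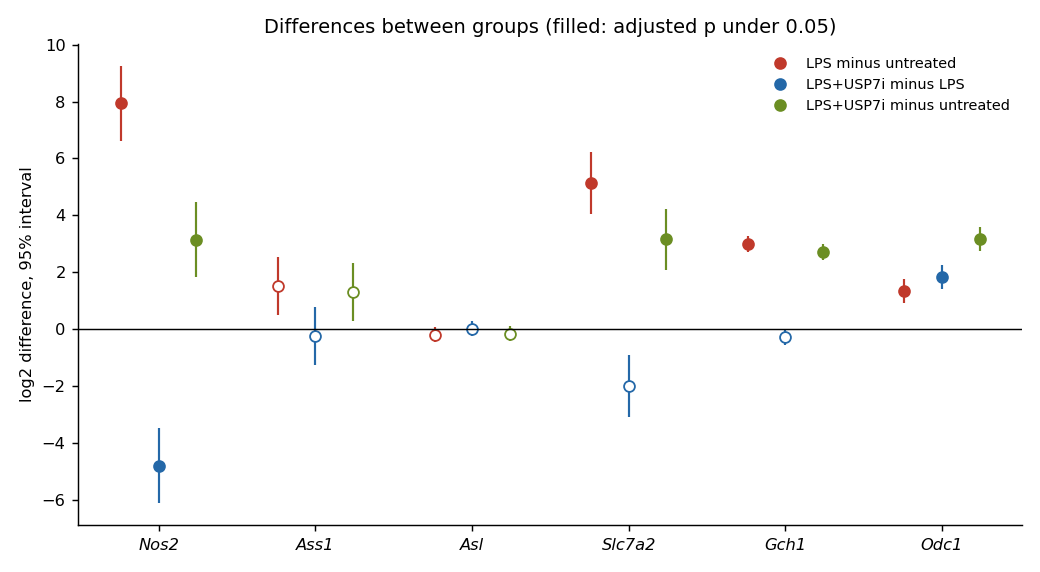
Log2 differences of the brightest probe of 6 genes with their 95% intervals from limma, in 3 comparisons that share arrays. Filled points passed an adjusted p of 0.05. *Nos2* fell by 4.79 and *Odc1* rose by 1.82 with the inhibitor.

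*Gch1* encodes GTP cyclohydrolase, the enzyme that starts tetrahydrobiopterin synthesis. Its brighter probe, at chr14:47775348-47775407 on the minus strand of mm9, read 11.99 and 12.08 (log2) on untreated arrays, 15.13 and 14.92 on LPS arrays, and 14.79 and 14.71 on LPS+USP7i arrays. Its dimmer probe had 7.55 and 7.64, 10.38 and 10.44, and 10.00 and 10.16. Both probes were well above background on all 6 arrays, and on both the LPS+USP7i arrays lay just under the LPS arrays and far above the untreated ones. LPS raised *Gch1* by 2.99 ± 0.099, or 7.92-fold, on the brighter probe (adjusted p = 0.00258) and by 2.81 ± 0.087, or 7.03-fold, on the dimmer (0.00252). With the inhibitor the log2 differences were −0.27 ± 0.099 (adjusted p = 0.220) and −0.33 ± 0.087 (0.117), which did not pass. Over the alternatives the difference of *Gch1* with the inhibitor ranged from −0.47 to −0.17. LPS+USP7i exceeded untreated cells by 2.71, or 6.55-fold (0.00437), and by 2.48, or 5.59-fold (0.00425).

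RefSeq promoters on assembly GRCm38.p6 were matched for 3 of the 6 genes, *Ass1*, *Gch1*, and *Odc1*, and the 250 bases upstream of the start site of *Gch1* and of *Ass1* are shown because these 2 of the 3 promoters held motif matches. Capitals mark matches to any of 7 motifs, read on both strands.
Gch1, chr14:47189414-47189663, minus strand: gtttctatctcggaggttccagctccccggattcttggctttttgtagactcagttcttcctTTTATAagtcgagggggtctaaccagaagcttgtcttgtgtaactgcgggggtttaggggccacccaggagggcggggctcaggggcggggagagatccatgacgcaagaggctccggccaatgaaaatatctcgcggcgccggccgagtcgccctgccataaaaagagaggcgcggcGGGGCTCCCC
Ass1, chr2:31470020-31470269, plus strand: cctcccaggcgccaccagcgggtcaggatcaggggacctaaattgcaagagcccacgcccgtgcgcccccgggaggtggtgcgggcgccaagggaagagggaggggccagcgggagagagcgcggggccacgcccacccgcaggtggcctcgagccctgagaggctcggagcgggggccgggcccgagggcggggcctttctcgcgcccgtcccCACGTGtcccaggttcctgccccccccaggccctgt
The *Gch1* sequence held 1 match to the κB consensus, directly before the start site, and 1 to TATAAA on the opposite strand. Over all 32851 promoters of 300 bases, 4.51% held the κB consensus and 13.6% held TATAAA. *Ass1* held the E-box CACGTG, as did 7.15% of promoters. The promoter of *Odc1* held none of the 7 motifs (0 matches). The others searched were GAAANNGAA, TTCNNNGAA, TGACGTCA, and TTGCNNAA, which 8.56%, 8.3%, 1.79%, and 10.8% of promoters held. A match is a description of letters and not of a bound site.

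*Odc1*, which encodes ornithine decarboxylase, the committing step of polyamine synthesis, was read by 4 probes. The brightest, A_55_P1995173, lies at chr12:17557831-17557890 of mm9 and shares 22 bases with A_55_P1982818. A probe named A_55_P2035102 is placed on chromosome 17 by the files and matches the brightest probe at 54 of 55 aligned bases, so transcripts of both places cannot be told apart. The fourth, A_52_P436238, lies further upstream in the gene and shares no stretch with the others. Their sequences are shown because the inhibitor's effect on *Odc1* rests on probes that are partly the same, with the differing base in capitals.
A_55_P1995173, bases 6 to 35, chr12:17557836-17557865, plus strand: ccagaagcTtatgttgtgacccattgtgaa
A_55_P2035102, bases 1 to 30, chr17:93858649-93858678, minus strand: ccagaagcGtatgttgtgacccattgtgaa
A_52_P436238, chr12:17554799-17554858, plus strand: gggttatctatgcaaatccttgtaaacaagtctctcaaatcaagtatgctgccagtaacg
Counted from 1 at the 5′ end of the window, the substitution from the first to the second was T9G.

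On the brightest probe, the log2 signals of *Odc1* were 10.14 and 10.35 (untreated), 11.62 and 11.58 (LPS), and 13.59 and 13.25 (LPS+USP7i). On A_52_P436238 they were 7.04 and 7.45, 9.20 and 8.64, and 11.03 and 10.44. On all 4 probes the untreated arrays were lowest, the LPS arrays intermediate, and the LPS+USP7i arrays highest, with no overlap. LPS raised *Odc1* by 1.35 ± 0.15, or 2.56-fold, on the brightest probe (adjusted p = 0.0116) and by 1.35 to 1.68 over the 4 probes, all of which passed. With the inhibitor it rose by a further 1.82 ± 0.15, or 3.54-fold (adjusted p = 0.0162). This difference was 1.98 in replicate 1 and 1.67 in replicate 2.

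Over the 4 probes the log2 difference of LPS+USP7i minus LPS ran from 1.82 to 2.25, and 3 of 4 passed. The exception was A_52_P436238, whose difference of 1.82 ± 0.32 had an adjusted p of 0.0532. LPS+USP7i exceeded untreated cells by 3.18 ± 0.15, or 9.05-fold (adjusted p = 0.00542), on the brightest probe and by up to 3.90 on A_55_P1982818. Among the 20720 probes well above background on all arrays, the rise of *Odc1* with the inhibitor ranked 384 from the highest.

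The call of *Odc1* with the inhibitor was lost in the fit of the 2 groups alone (adjusted p = 0.0622), without untreated replicate 1 or 2 (0.0622 each), and without LPS replicate 1 (0.0658) or 2 (0.0640), within a range of 0.000806 to 0.0658. Its call with LPS was lost without untreated replicate 1 (0.0617) or 2 (0.0534) and without LPS replicate 1 (0.0650) or 2 (0.0569), within a range of 0.00114 to 0.0650.

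**Figure D3:**
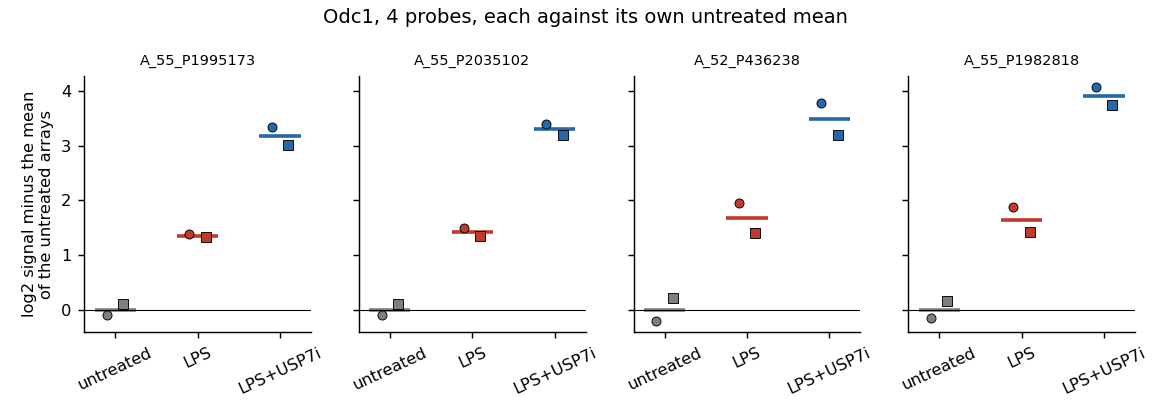
Log2 signal of the 4 *Odc1* probes on the 6 arrays, each probe set against its own mean over the untreated arrays, with circles for replicate 1, squares for replicate 2, and bars for group means. Every probe steps up from untreated to LPS and again to LPS+USP7i, the second step by 1.82 to 2.25.

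Genes related to these 6 by function were described as lists, each gene by its brightest probe. Beside their counts stand the shares of all probes, which with LPS were 7.09% higher and 10.7% lower (11.3% and 17.7% at an unadjusted p under 0.05) and with the inhibitor 4.66% higher and 3.79% lower (12.5% and 10.3% unadjusted). In the fit of the LPS and LPS+USP7i arrays alone, and without either untreated array, 0 of all probes were called with the inhibitor (limma, smallest adjusted p = 0.0561; 6051 higher and 5205 or 5206 lower unadjusted), so every call of a list gene with the inhibitor is lost there. Of 12 genes of polyamine synthesis and catabolism on the arrays besides *Odc1*, 5 were lower and 0 higher with LPS (3 higher and 6 lower at an unadjusted p under 0.05, limma), with a median of −0.25 against 0.0016 over all gene names. With the inhibitor 3 were higher and 0 lower than with LPS alone (5 higher and 1 lower unadjusted), with a median of 0.24 against 0.0009. These 12 genes were well above background on both arrays of a group, which many of all probes were not. Over the 20720 probes well above background on all 6 arrays, the median was −0.15 with LPS and 0.048 with the inhibitor. In the fit with dim probes left out, 6906 of 25084 probes were called lower and 4468 higher with LPS. With the inhibitor 3287 were lower and 3772 higher there. *Azin1*, whose product binds antizyme and so spares ornithine decarboxylase, fell by 0.53 with LPS (adjusted p = 0.0445) and rose by 1.55 ± 0.11 with the inhibitor (0.0135). The antizyme gene *Oaz2* fell by 0.82 with LPS (0.00914) and rose by 0.66 with the inhibitor (0.0279), and *Oaz1* fell by 0.42 with LPS (0.0230).

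*Smox*, which encodes spermine oxidase, rose by 0.69 ± 0.068 with the inhibitor (adjusted p = 0.0194). *Paox*, for a polyamine oxidase, fell by 1.07 with LPS (0.0120), and *Dohh*, for an enzyme that completes hypusine formation, fell by 0.49 (0.0321). *Amd1* was not analysed here. The genes that were higher with the inhibitor thus include an inhibitor of antizyme, an antizyme, and a catabolic enzyme, which are known to act on polyamine levels in different directions.

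Of 9 other genes for transport of cationic amino acids, their partners, and related carriers, 3 were higher and 1 lower with LPS. With the inhibitor 0 were higher and 1 lower (3 higher and 1 lower unadjusted). Among all probes 7.09% were higher and 10.7% lower with LPS, and 4.66% higher and 3.79% lower with the inhibitor (12.5% and 10.3% unadjusted), so the 1 of 9 lower with LPS is near the share of all probes. The medians were 0.029 and 0.52, against 0.0016 and 0.0009 over all gene names. The first is the value of *Slc25a29*, which was well above background on 1 of 2 LPS arrays. The second is the value of *Slc25a15*, which was well above background on 0 arrays, so no shift of the list is read from it. *Slc7a1*, the constitutive cationic transporter, rose by 0.86 with LPS (adjusted p = 0.0294), and with the inhibitor its difference of 0.78 missed the threshold (0.0583). *Slc7a7*, which exchanges cationic for neutral amino acids, rose by 1.11 with LPS (0.0175) and fell by 1.31 ± 0.15 with the inhibitor (0.0247). *Slc7a8*, a related carrier of neutral amino acids, rose by 1.61 with LPS (0.0324), and *Slc7a6* fell by 1.17 (0.0395).

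Among 7 other nitric oxide synthase genes and modulators, *Nostrin* alone passed with LPS, where it fell by 1.32 ± 0.27 (adjusted p = 0.0448; 0 higher and 2 lower unadjusted), and 0 passed with the inhibitor (1 higher and 0 lower unadjusted). Of 7 further tetrahydrobiopterin genes, *Pts* alone passed with LPS, falling by 0.37 (0.0327; 0 higher and 5 lower unadjusted), and 0 passed with the inhibitor (1 higher and 0 lower unadjusted). In each list 1 of 7 lower with LPS is near the 10.7% of all probes. The unadjusted 2 of 7 and 5 of 7 stand beside 17.7% of all probes, and no difference from that share was tested. The medians of these lists were −0.42 and −0.30 with LPS. The first is the value of *Nos1ap*, which was well above background on 0 LPS arrays. Neither median was tested or recomputed with 75th percentile scaling, which moved the median of all probes to 0.51 for LPS minus untreated. The 3 subunit genes of the nitric oxide receptor were well above background on 0 arrays. Of 11 genes of the urea cycle and other arginine use, 4 were well above background on 0 arrays, among them *Cps1* and *Otc* of the liver cycle. In that list 1 gene, *Gamt*, passed with LPS, falling by 0.72 (0.0244; 0 higher and 4 lower unadjusted), and 1 of 11 is near the 10.7% of all probes. With the inhibitor 1 gene, *Azin2*, passed, rising by 0.90 ± 0.091 (0.0204; 2 higher and 2 lower unadjusted), beside 4.66% of all probes. *Azin2* was placed in this list but is named as an antizyme inhibitor, like *Azin1*, so its call is not read as one of arginine use.

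Of 10 markers of alternative activation, 2 were higher and 1 lower with LPS, and 2 were higher and 1 lower with the inhibitor. The shares of all probes were 7.09% and 10.7% with LPS and 4.66% and 3.79% with the inhibitor, and 1 of 10 lower with LPS is near its share. *Pparg*, for a lipid-sensing nuclear receptor, fell by 2.25 ± 0.097 with LPS (adjusted p = 0.00304) and rose by 1.01 with the inhibitor (0.0192). *Il4ra*, the interleukin-4 receptor chain, rose by 0.37 with LPS (0.0396) and by 0.84 with the inhibitor (0.0164). The chemokine gene *Ccl24* rose by 2.92 ± 0.49 with LPS (0.0280) and fell by 2.83 with the inhibitor (0.0497). *Retnla* and *Cd163* were well above background on 0 arrays.

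The list of 16 transcription factors of macrophage activation held 12 genes that were higher and 1 that was lower with LPS (12 higher and 2 lower unadjusted), with a median of 1.43. With the inhibitor 7 were lower and 3 higher (11 lower and 4 higher unadjusted), with a median of −0.94. Of all probes, 7.09% were higher and 10.7% lower with LPS, and 3.79% were lower and 4.66% higher with the inhibitor (10.3% and 12.5% unadjusted). *Irf1*, an activator of *Nos2*, rose by 3.90 ± 0.25 with LPS (adjusted p = 0.00446) and differed by −0.52 with the inhibitor without passing (0.371). *Irf8* rose by 1.42 with LPS (0.0267) and fell by 3.13 ± 0.23 with the inhibitor (0.0144). *Nfkb1*, which encodes the precursor of p50, rose by 3.16 (0.00253) and fell by 1.45 (0.0134), and *Rel* was at least 4.76-fold higher with LPS (0.00267) and fell by 1.11 (0.0303). A bound is given for *Rel* because it was well above background on 0 of 2 untreated arrays, where the lowest signal well above background stood in for it. *Cebpd* rose by 3.08 (0.00439) and fell by 2.68 (0.0144), and *Batf* rose by 2.64 (0.00329) and fell by 2.27 (0.0114). The 3 factors higher with the inhibitor, named after their values were seen, were *Ahr* by 2.21, *Atf4* by 1.26, and *Cebpb* by 0.94 (0.0107, 0.0270, and 0.0307).

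**Figure D4:**
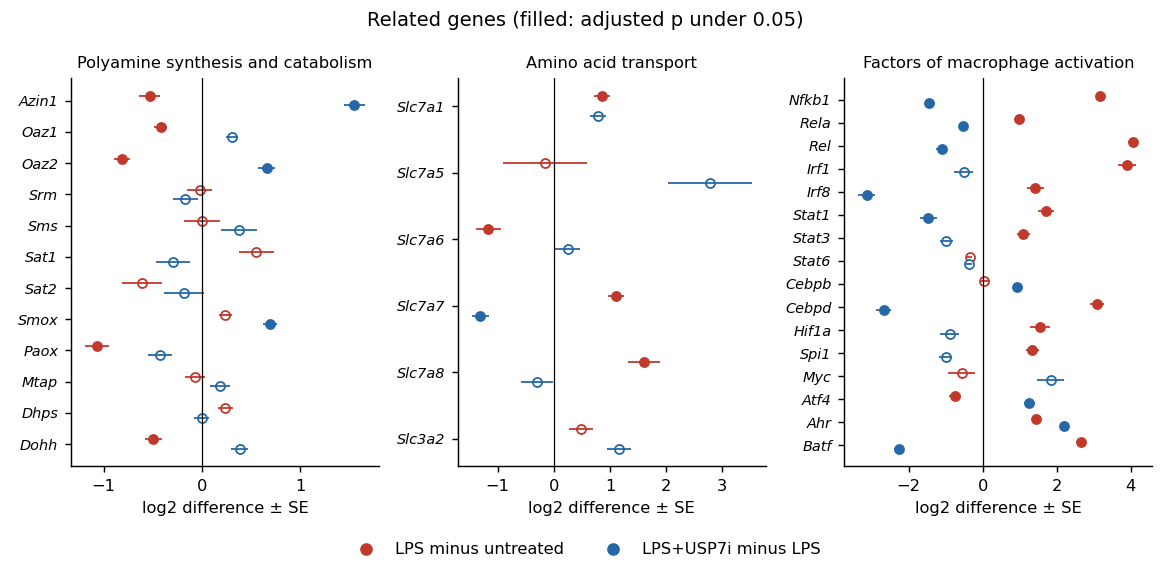
Log2 differences with standard errors for genes of 3 lists, LPS minus untreated and LPS+USP7i minus LPS, which share the LPS arrays. Filled points passed an adjusted p of 0.05, and a gene is shown only if both LPS or both LPS+USP7i arrays were well above background. In the polyamine panel *Azin1* stands at −0.53 with LPS and at 1.55 with the inhibitor; the point of *Rel* for LPS minus untreated rests on untreated signals not well above background, so only its bound is given in the text.

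The labeled cell type was checked against markers. All 10 macrophage markers were well above background on all 6 arrays, with *Csf1r* the brightest. Summed over these markers, the processed signal before normalization between arrays came to 688730 and 852970 (untreated), 723970 and 863140 (LPS), and 518020 and 606510 (LPS+USP7i). Some markers of other cell types were read too. Well above background on both arrays of a group were 4 of 5 B cell and 6 of 9 granulocyte and mast cell markers. The same held for 2 of 5 dendritic cell and 1 of 5 erythroid markers. *Siglech*, *Elane*, *Ly6g*, *S100a8*, *S100a9*, and *Cd79b* were so on all 6 arrays, and the markers thus do not show that only macrophages were present. Marker sums that moved with *Nos2* were found in the T and NK cell list and in the stromal list. The 8 T and NK cell markers summed to 991 and 1221, 2382 and 3576, and 976 and 1182, in which *Lck* rose by 4.23 with LPS (adjusted p = 0.00331) and fell by 2.47 with the inhibitor (0.0161). *Cd3e*, the brightest of them by its mean, differed by 0.02 and 0.23 in these comparisons (0.981 and 0.519), *Cd3g* was well above background on 0 arrays, and *Cd3d* on 1 of 6.

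The 7 stromal and L929 fibroblast markers summed to 74.4 and 117, 486 and 554, and 97.0 and 102, of which *Pdgfrb* was the brightest. *Pdgfrb* was called higher with LPS (limma, adjusted p = 0.0321) and was not called with the inhibitor (0.0640), and no size is given because 1 of 2 untreated and 1 of 2 LPS+USP7i arrays were well above background. The genes *Col1a1*, *Col3a1*, *Pdgfra*, and *Lum* were well above background on 0 arrays. *Dcn* was well above background on both untreated, both LPS, and 1 of 2 LPS+USP7i arrays, with mean log2 signals of 4.52, 5.57, and 4.81 that differed in the direction of *Nos2* without passing (0.335 and 0.552). The part of such cells in the values of *Nos2* was not tested. Fewer cells of a type and less RNA per cell cannot be told apart in these samples.

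The slide held all 6 arrays, and 1 scan read them. The replicate number equals the position of an array along 1 direction of the slide. Along the other direction untreated, LPS, and LPS+USP7i arrays lay at positions 1, 2, and 4, so this position and treatment cannot be told apart.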

How the data were processed

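The authors deposited 1 scanner file per array, with spot intensity values from Agilent Feature Extraction 10.7.3.1 that were corrected for background but not normalized between arrays, and a table of log2 values that their methods describe as quantile-normalized. Here the processed signals of noncontrol spots were log2-transformed and quantile-normalized, spots marked as outliers by the software were left out, and the spots of a probe were averaged. All 6 arrays entered 1 linear model in limma 3.58.1 (R 4.3.3), whose moderated t tests had 3 residual and 1.05 prior degrees of freedom. Benjamini-Hochberg adjustment ran over 55680 probes with a threshold of 0.05. With 2 arrays per group, the smallest two-sided p of an exact permutation test is 0.333.

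A probe counts as well above background where Feature Extraction set that flag for the majority of its spots. Bounds set the brighter group's mean against, per array, the higher of the dim probe's value and the lowest signal well above background. Genes were named by their symbol in the files for the 6 members, and otherwise through the RefSeq table of GRCm38.p6 (26762 probes by accession, 3819 by symbol, and 639 by synonym). Probe positions are those of the files, and the exon or UTR a probe lies in was not analysed here. The members and gene lists were chosen with earlier results of these data known. All 6 members were named, and from each list up to 6 genes past the threshold with LPS or with the inhibitor by the size of the log2 difference. These had to be well above background on both arrays of a group compared. Beyond this rule, the 3 transcription factors higher with the inhibitor, some cell markers, and some dim genes were named. Other genes are not reported here. The labels give ages of 6 to 8 weeks, and the study's methods another range.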

Additional observations from a re-analysis of the deposited data

How the results depend on the processing

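The differences of the 6 genes and the counts of them called were recomputed under 15 alternatives, and the counts of all probes called under 14. These differences used the brightest probe, except under the mean of all probes of a gene. Other probes by themselves, list genes, ranks, nearest genes, and marker sums were not recomputed. For the 6 genes, 75 of 90 recomputed log2 differences kept direction and side of the threshold for LPS minus untreated, 71 of 90 for LPS+USP7i minus LPS, and 75 of 90 for LPS+USP7i minus untreated. The cause of the changes below was not tested, except that fewer arrays leave fewer degrees of freedom.

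All probes called numbered 9895, 4704, and 7233 in these comparisons. With 75th percentile scaling they numbered 27437 for LPS minus untreated and 26542 for LPS+USP7i minus untreated. With dim probes left out, 7059 were called for LPS+USP7i minus LPS. Fits of the 2 groups compared called 0 probes there (limma, with 6051 higher and 5206 lower at an unadjusted p under 0.05) and 4684 for LPS+USP7i minus untreated, and of the 6 genes 0 higher and 0 lower, and 2 higher, respectively. With each array left out in turn, all probes called ranged from 4017 to 9177, from 0 to 4558, and from 1557 to 5549 in the 3 comparisons. The count of 0 arose without either untreated array, with 6051 higher and 5205 or 5206 lower at the unadjusted limit. The members called ranged from 3 to 5 higher with LPS, from 0 to 1 higher and 0 to 1 lower with the inhibitor, and from 2 to 4 higher in LPS+USP7i minus untreated. Members lower with the inhibitor numbered 2 with 75th percentile scaling, normexp, the deposited log2 values, dim probes left out, and a trended prior, *Slc7a2* being the added gene.

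Directions changed only for differences that were never called. *Asl* moved to 0.010 and −0.068 with 75th percentile scaling, and without single arrays ranged from −0.081 to 0.12 for LPS+USP7i minus LPS. *Ass1* ranged from −0.67 to 0.20 there.

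With the replicate number as a replicate block, the samples of 1 number deviated together (correlations of 0.47, 0.40, and 0.42 between groups), but the labels do not say what a number shares. The block called 10412, 3543, and 7575 probes, and of the 6 genes 5 higher with LPS, 1 higher and 1 lower with the inhibitor, and 5 higher in LPS+USP7i minus untreated, where *Ass1* was the added gene (adjusted p = 0.0290 and 0.0451). *Nos2* and *Odc1* had adjusted p values of 0.0422 with the inhibitor under the block. Signal over background limits *Slc7a2* in untreated cells.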
